A study of Mus musculus with 12 samples.

Results

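The genes that encode translation initiation factors were followed through a heat treatment in mouse embryonic fibroblasts with and without CHIP. Members were the protein-coding genes of the deposited table whose symbols begin with Eif1 to Eif6, leaving out the eIF2 alpha kinases (Eif2ak) and the eIF2 gamma subunit genes (Eif2s3). This rule gave 49 genes of 54532 in the table, 22046 of which were protein-coding, and it used no measured value. The 4 groups were CHIP-KO fibroblasts held for 1 hour at 43 °C, CHIP-KO fibroblasts left unheated, wild-type fibroblasts given the same heat and wild-type fibroblasts left unheated. CHIP, the product of Stub1, is a ubiquitin ligase and a partner of the HSP70 and HSP90 chaperones. Each group had 3 libraries of poly(A)-captured RNA, 12 in all. The labels name the cells only as mouse embryonic fibroblasts of each genotype. How CHIP was removed, from how many embryos or lines the cells came, and whether the 3 libraries of a group were separate cultures is not given in the sources used here, so the p values describe no more than how these libraries spread, and that spread may be technical.

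Initiation begins when eIF2, loaded with GTP and the initiator tRNA as the ternary complex, joins the small ribosomal subunit together with eIF1, eIF1A, eIF3 and eIF5. The cap-binding protein eIF4E, the scaffold eIF4G and the helicase eIF4A bring this assembly to the capped end of an mRNA, where it scans for a start codon, and eIF5B then joins the large subunit. Heat and other stresses are known to slow initiation through phosphorylation of eIF2 alpha, which blocks its exchange factor eIF2B, and through 4E-binding proteins, which hold eIF4E away from eIF4G. Both switches act on proteins, and the values below are transcript levels.

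The libraries held 19953642 to 26954112 fragments in heated CHIP-KO cells, 22894580 to 26244726 in unheated CHIP-KO cells, 17103444 to 19294361 in heated wild-type cells and 15591924 to 20098901 in unheated wild-type cells. Stub1 averaged 1.08 ± 0.0886 FPKM in heated CHIP-KO cells and 55.4 ± 2.25 FPKM in heated wild-type cells, and the unheated means were 0.971 ± 0.229 FPKM for CHIP-KO and 61.7 ± 3.63 FPKM for wild type (SD, n = 3 each). It was lower in every CHIP-KO library (exact two-sided permutation test, p = 0.1 in each comparison, the smallest that 3 against 3 allows). Replicate 1 of both wild-type groups stood apart from its group, with limma library weights of 0.165 heated and 0.192 unheated. Eif2s3y, the Y-linked eIF2 gamma gene, stood at 13.0 to 15.2 FPKM in the CHIP-KO libraries and was listed at 0 in all wild-type libraries, so a difference in the origin of the cells cannot be told apart from genotype. The summed level of 11 fibroblast markers was 3879 to 4112 FPKM in heated CHIP-KO, 3363 to 3550 in unheated CHIP-KO, 2621 to 2922 in heated wild-type and 1639 to 1985 in unheated wild-type libraries, with 10, 10, 8 and 8 markers at a mean of at least 1 FPKM and Lum at 0 in unheated wild type. Of 4 mesothelial markers only Msln reached a mean of 1 FPKM in any group and Wt1 and Lrrn4 were at 0 in all libraries, and the list summed to 31.1 to 38.1 FPKM in heated CHIP-KO, 27.7 to 31.9 in unheated CHIP-KO, 5.40 to 6.05 in heated wild-type and 29.8 to 30.5 in unheated wild-type libraries. The 3 neural markers summed to 31.8 to 38.9 FPKM in heated CHIP-KO, 36.0 to 40.2 in unheated CHIP-KO, 13.5 to 14.8 in heated wild-type and 25.1 to 31.3 in unheated wild-type libraries, with Nes and Tubb3 at a mean of at least 1 FPKM in every group and Sox2 in both CHIP-KO groups. Both sums were lowest in heated wild type, the group in which 29 members were lower than without heat. Of 4 macrophage markers only Cd68 reached 1 FPKM and Adgre1 was at 0 in all libraries, and the list summed to 8.47 to 10.7 FPKM in heated CHIP-KO, 3.91 to 4.33 in unheated CHIP-KO, 12.3 to 15.4 in heated wild-type and 1.86 to 2.98 in unheated wild-type libraries. The endothelial (4), epithelial (5) and muscle (3) lists summed to at most 0.753, 2.19 and 2.13 FPKM, with Cdh5 at or near 0 and Myod1 and Myog at 0. The part that the marker differences have in the results below was not tested.

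FPKM counts fragments per kilobase of gene, scaled to the size of the library, so it is a relative level. In such bulk samples a lower level in all cells and a smaller number of cells with the transcript cannot be told apart. Of the 49 genes, 9 had a mean over the 12 libraries of at least 100 FPKM, 34 of at least 20 and 47 of at least 1. The most abundant per length were Eif3h, an eIF3 subunit, Eif5a, which carries the modified amino acid hypusine and helps ribosomes form difficult peptide bonds, Eif1, which guards start codon choice, Eif4b, a helper of the helicase, and Eif4a1, the helicase itself. These top 5 made up 38.1% to 38.7% of the summed FPKM of the family in heated CHIP-KO libraries, 35.8% to 36.2% in unheated CHIP-KO, 39.2% to 40.1% in heated wild-type and 36.8% to 38.0% in unheated wild-type libraries. The summed level itself was 2748 to 2795 FPKM in heated CHIP-KO, 2509 to 2551 FPKM in unheated CHIP-KO, 2402 to 2648 FPKM in heated wild-type and 3005 to 3350 FPKM in unheated wild-type libraries. Heated and unheated libraries did not overlap in either genotype: the heated sum was higher in CHIP-KO cells and lower in wild-type cells. As a share of the summed FPKM of all genes, which is the equal-sum scaling, the family held 0.777% to 0.796% in heated CHIP-KO, 0.895% to 0.914% in unheated CHIP-KO, 0.740% to 0.762% in heated wild-type and 1.066% to 1.153% in unheated wild-type libraries, so on that scale the heated libraries were lower in both genotypes. At the low end, Eif4ebp3, a 4E-binding protein, gathered 83 fragments over all libraries and Eif4e1b, known as the oocyte form of the cap-binding protein, gathered 2 fragments, both in an unheated wild-type library. These 2 genes did not reach 1 FPKM in 3 libraries and were not tested, which left 47 members among 13023 genes tested.

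RefSeq promoter windows, 250 bases before to 50 bases after a gene's start on GRCm38.p6, were at hand for 37 of the 49 members. Among the 3 members with the largest called falls and the 3 with the largest called rises after heat in wild type (mean of at least 2 FPKM in the higher group), 4 had a window, printed here: Eif5a at chr11:69921337-69921636 (minus strand) and Eif3b, an eIF3 subunit, at chr5:140419055-140419354 (plus strand) fell, and Eif4b at chr15:102073523-102073822 (plus strand) and Eif4a2, a second helicase, at chr16:23107218-23107517 (plus strand) rose. Capitals mark CACGTG, the E-box bound by MYC and related factors, which reads the same on both strands.
Eif5a: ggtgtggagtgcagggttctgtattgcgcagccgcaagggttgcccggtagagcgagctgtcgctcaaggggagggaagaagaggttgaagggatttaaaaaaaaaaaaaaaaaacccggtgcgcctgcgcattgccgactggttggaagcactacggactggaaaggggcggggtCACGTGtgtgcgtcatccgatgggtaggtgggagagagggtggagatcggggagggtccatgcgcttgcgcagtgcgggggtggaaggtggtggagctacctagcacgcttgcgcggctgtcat
Eif3b: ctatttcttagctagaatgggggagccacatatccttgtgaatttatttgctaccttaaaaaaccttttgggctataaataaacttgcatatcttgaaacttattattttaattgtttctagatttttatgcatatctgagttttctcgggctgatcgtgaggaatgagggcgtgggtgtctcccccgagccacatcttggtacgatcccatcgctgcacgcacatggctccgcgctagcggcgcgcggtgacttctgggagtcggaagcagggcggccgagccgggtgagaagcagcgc
Eif4b: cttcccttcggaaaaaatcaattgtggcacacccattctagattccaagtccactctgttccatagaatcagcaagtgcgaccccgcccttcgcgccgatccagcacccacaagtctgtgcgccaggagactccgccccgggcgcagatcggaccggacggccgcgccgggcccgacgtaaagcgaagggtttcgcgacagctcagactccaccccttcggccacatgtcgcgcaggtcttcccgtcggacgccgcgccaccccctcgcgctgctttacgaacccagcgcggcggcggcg
Eif4a2: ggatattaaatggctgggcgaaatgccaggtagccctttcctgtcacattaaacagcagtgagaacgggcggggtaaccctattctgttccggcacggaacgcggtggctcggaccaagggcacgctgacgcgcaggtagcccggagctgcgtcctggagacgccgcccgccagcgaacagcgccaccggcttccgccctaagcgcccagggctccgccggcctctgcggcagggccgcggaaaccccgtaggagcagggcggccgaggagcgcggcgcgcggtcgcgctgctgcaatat
Eif5a has 6 such windows from its different starts, 3 of them hold CACGTG, and the one printed was taken because it does. The windows of Eif3b, Eif4b and Eif4a2 do not hold it. CACGTG was present in windows of 10 of the 37 members (27.0%), against 12.2% of the 8707 tested protein-coding genes with a window and 8.09% of all 27025 genes with one. The 10 were Eif1b, Eif3a, Eif3f, Eif3k, Eif4a1, Eif4e, Eif4g1, Eif4h, Eif5a and Eif5a2. After heat in wild type 7 of these 10 were called lower and 0 higher (limma adjusted p under 0.05), with a median log2 change of -0.41. Of the 27 other matched members 17 were called lower and 2 higher, with a median of -0.26. For the genotype by heat interaction 5 of the 10 were called above 0, with a median of 0.34. Of the 27 others 18 were called above 0, with a median of 0.38. Members not called can also lie above 0, as Eif1b and Eif3a did. These are descriptions, and no difference between members with and without the letters was tested. A heat shock element (GAA, TTC and GAA blocks or TTC, GAA and TTC blocks, each parted by NN), TGACGTCA and TGATGNAA, each searched on both strands, were found in the windows of 0 members, and in 0.551%, 3.65% and 2.56% of the tested protein-coding genes, against 0.662%, 2.03% and 4.51% of all genes with a window. A match is a description of these letters and not a measured binding site.

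Transcripts of most initiation factors were lower after heat in wild-type cells. At a limma adjusted p under 0.05 over all genes tested, 29 of 47 members fell and 4 rose, whereas 30.5% of all tested genes fell and 28.1% rose. The median log2 change of the members was -0.26 and that of all genes -0.02. Falls ran from -0.17 to -1.34 on the log2(FPKM + 1) scale, and the 4 that rose were Eif4e3, Eif3h, Eif4b and Eif4a2. In 27 members every heated library lay below every unheated library, and in 3 every heated library lay above, against 31.1% and 29.3% of all tested genes. Among genes with a mean of at least 5 FPKM 27 of 43 members fell, against 38.8% of all such genes. Without both wild-type replicates 1, 29 members fell and 7 rose (shares of all genes in that fit not given here).

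In CHIP-KO cells the same heat was followed by few calls. Here 10 members rose and 2 fell, against 8.65% and 11.4% of all tested genes, and the median log2 change was 0.092, against -0.0018 for all genes. Those that rose were Eif2b2, Eif1, Eif3h, Eif3l, Eif3f, Eif4a2, Eif6, Eif3i, Eif2b4 and Eif3g, and those that fell were Eif4ebp2 and Eif5a2. The rises were small, 0.19 to 0.52 in log2. All but those of Eif2b2 and Eif1 were below 0 when each library was scaled to an equal sum of FPKM, and Eif1 was not called there. That scaling moved the median of all genes by -0.29 in this comparison. Gm23935, a small RNA gene of 57 bases, held 12.4% to 17.0% of summed FPKM in heated CHIP-KO, 2.97% to 4.67% in unheated CHIP-KO, 13.2% to 15.2% in heated wild-type and 2.52% to 3.77% in unheated wild-type libraries. The count of rises was 3, 2 and 4 without unheated CHIP-KO replicates 1, 2 and 3, 6, 2 and 3 without heated CHIP-KO replicates 1, 2 and 3, and 18 without both wild-type replicates 1. Shares of all tested genes in these fits are not given here. Eif2b2, Eif4ebp2 and Eif5a2 kept their calls under every setting tried. Higher values in every heated library than in every unheated one were seen for 24 members, and lower values in every one for 4, against 22.8% and 25.9% of all tested genes.

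**Figure D1:**
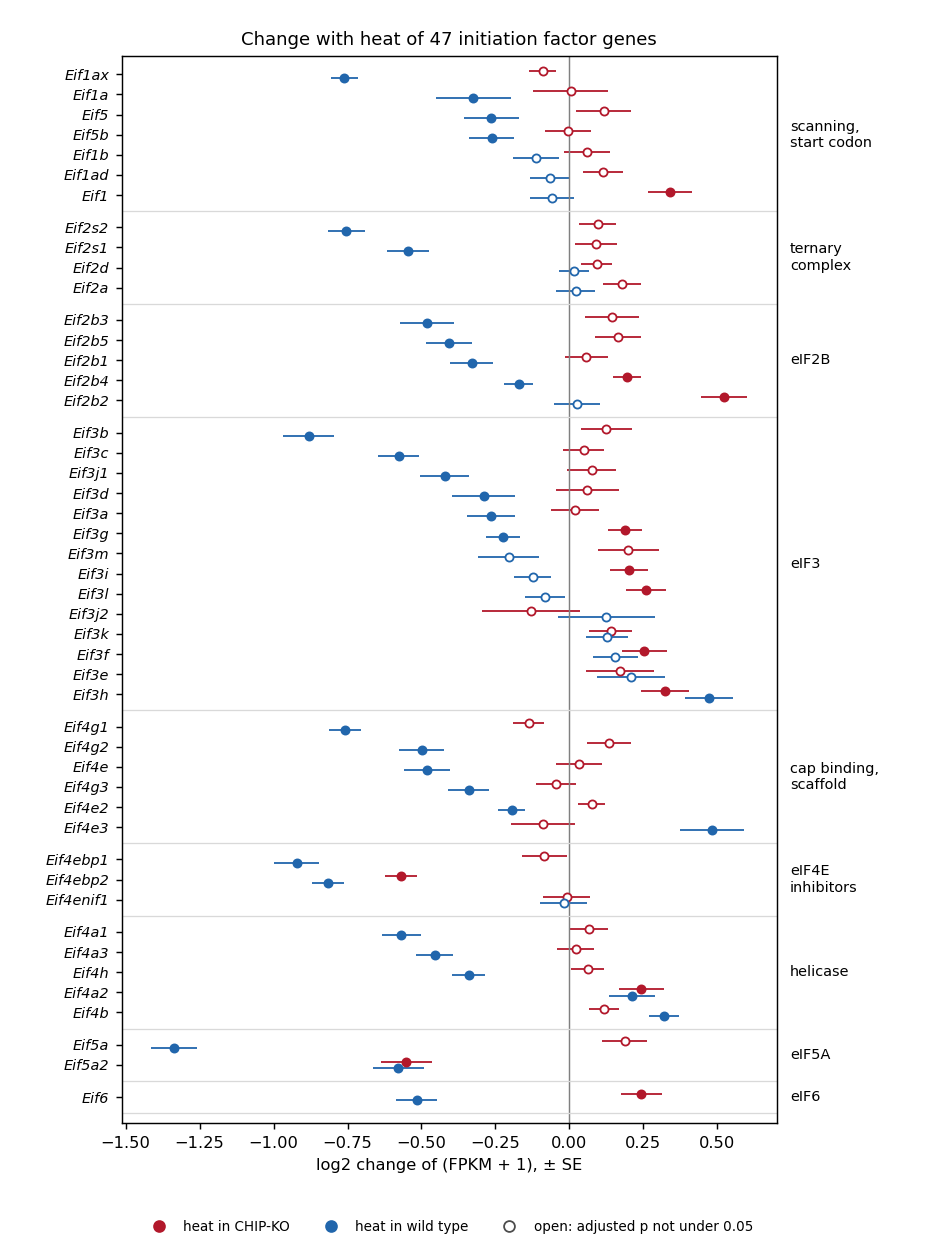
The log2 change of FPKM + 1 with heat (heated minus unheated) is drawn for each of the 47 tested members, CHIP-KO above wild type, with bars of 1 SE and filled points at limma adjusted p under 0.05. Most wild-type points lie left of 0, with Eif5a at -1.34, whereas CHIP-KO points lie near or right of 0, apart from Eif4ebp2 and Eif5a2; under equal-sum scaling 8 of the 10 CHIP-KO rises fall below 0.

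The heat response was then compared between genotypes through the interaction, the log2 heat change in CHIP-KO cells minus that in wild-type cells. It was above 0 at adjusted p under 0.05 for 28 of 47 members and below 0 for 2, Eif4b and Eif4e3, against 17.9% and 17.3% of all tested genes. The median was 0.37 for the members and -0.0029 for all genes. Of the 29 members that fell with heat in wild type, 24 had such a positive interaction, and 24 were not called for heat in CHIP-KO cells. The interaction subtracts the wild-type change of the same libraries, so a choice by wild-type fall favours positive values. These counts are therefore not separate support, and the same share over all genes that fell is not given here. Eif2b4, Eif3g and Eif6 fell in wild type and rose in CHIP-KO cells, although not under the equal-sum scaling. Eif3h and Eif4a2 rose in both, but under the equal-sum scaling only the wild-type rise of Eif3h was kept. Eif4ebp2 and Eif5a2 fell in both. Another 9 were called for heat in neither genotype. Without both wild-type replicates 1 the interaction was positive for 32 members and negative for 3 (shares of all genes in that fit not given here).

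Genotype was next compared within each treatment. These comparisons share libraries with those of heat, so their values are given side by side and not as separate support. Without heat, 26 of 47 members were lower in CHIP-KO cells and 0 were higher, against 24.5% and 23.9% of all tested genes. Their median difference was -0.21, against -0.01 for all genes, and the differences called ran from -0.17 to -0.94. By unadjusted p under 0.05, 28 members differed. In 30 members each unheated CHIP-KO library lay below each unheated wild-type library, and in 1 above, against 31.1% and 30.1% of all tested genes. After heat the direction was mostly the other way: 19 members were higher and 5 lower in heated CHIP-KO than in heated wild-type cells, against 23.3% and 19.1% of all tested genes, with a median of 0.13 against 0.01 for all genes. Libraries did not overlap for 22 members on the higher and 6 on the lower side, against 27.7% and 22.7%. Called lower without heat and higher after heat were 11 members: Eif1ax, Eif2s1, Eif3b, Eif3g, Eif4a1, Eif4a3, Eif4e, Eif4g2, Eif4h, Eif5a and Eif6. The share of all tested genes that met both calls is not given here, so this count has no background beside it. For Eif4e the call without heat, -0.20 (adjusted p = 0.0477), was lost in 10 of the 12 fits that each left out a library, all but those without unheated wild-type replicates 2 or 3, with log2 differences of -0.11 to -0.27 and an adjusted p of up to 0.136. For Eif3g the call without heat, -0.17 (adjusted p = 0.0303), was lost without any unheated CHIP-KO library or unheated wild-type replicate 1, with an adjusted p of up to 0.0978. For Eif4h the call after heat, 0.19 (adjusted p = 0.0168), was lost without heated CHIP-KO replicates 2 or 3, with an adjusted p of up to 0.0677, under equal sums, with voom and with only the groups compared. Without both wild-type replicates 1, 25 members were lower and 1 higher without heat, and 22 were higher and 8 lower after heat. The shares of all genes in that fit are not given here.

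**Figure D2:**
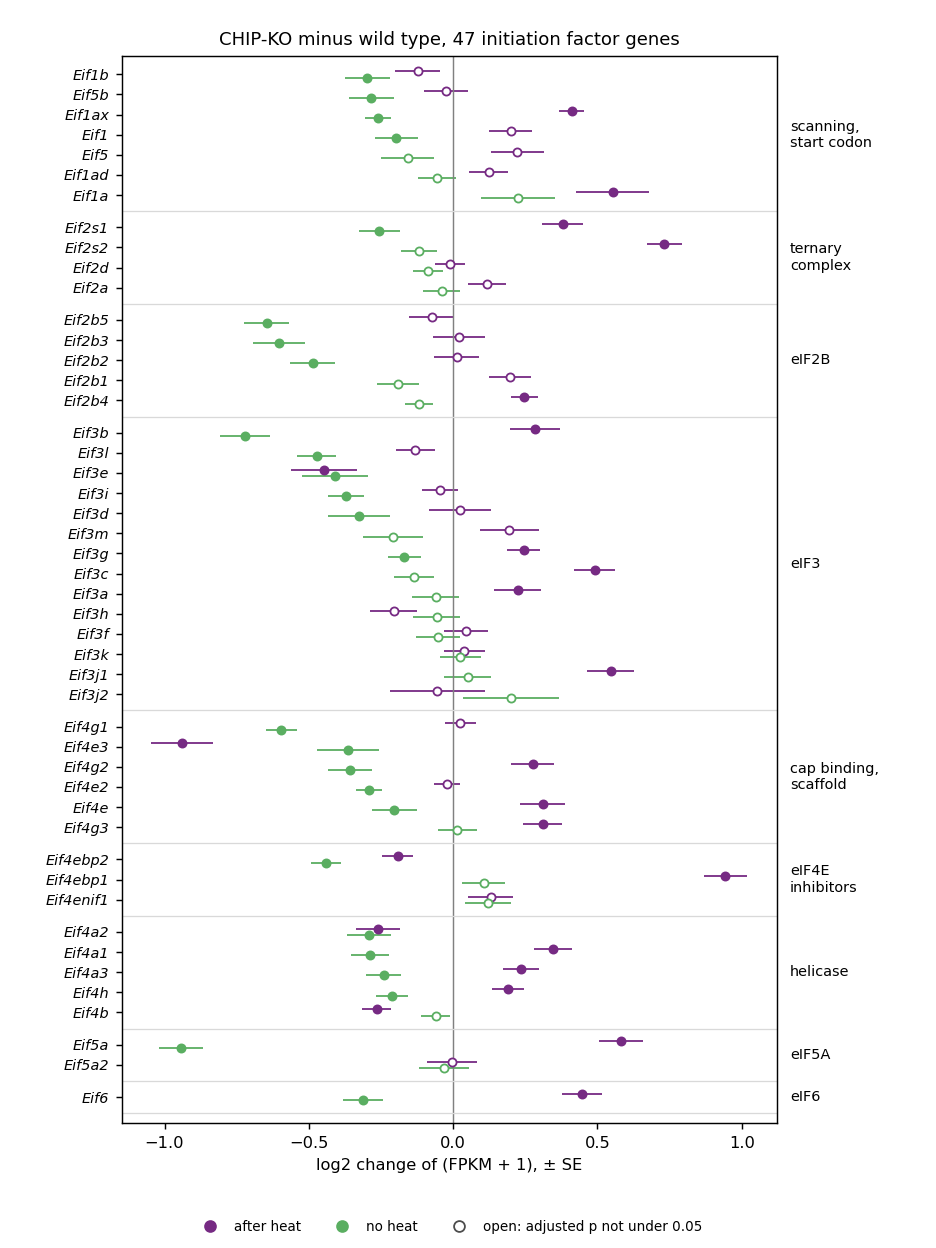
The log2 difference of FPKM + 1 between genotypes (CHIP-KO minus wild type) is drawn for each of the 47 tested members, after heat above no heat, with bars of 1 SE and filled points at limma adjusted p under 0.05. Without heat the filled points lie left of 0, down to -0.94 for Eif5a, and after heat most lie right of 0, up to 0.94 for Eif4ebp1.

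Cap binding and its scaffold held 7 members, 6 of them tested. With heat in wild type 5 fell and 1 rose, against 30.5% and 28.1% of all tested genes. In CHIP-KO cells 0 were called in either direction (1 at an unadjusted p under 0.05). Of all tested genes 11.4% fell and 8.65% rose there, so 0 of 6 is near those shares. All 6 had an interaction, positive in 5, against 17.9% of all tested genes above 0 and 17.3% below. The interaction of Eif4g3 lost its call in 12 of 22 alternative settings. Eif4g1, the scaffold that bridges the cap-binding protein, the helicase and eIF3, stood at 99.8, 99.0 and 100.4 FPKM in heated CHIP-KO cells, 112, 109 and 109 FPKM in CHIP-KO cells without heat, 104, 94.0 and 96.1 FPKM in heated wild-type cells and 174, 168 and 158 FPKM in unheated wild-type cells. The unheated wild-type libraries lay above all others. The log2 change with heat was -0.14 (SE 0.053, adjusted p = 0.0913) in CHIP-KO cells and -0.76 (SE 0.053, adjusted p = 7.13e-07) in wild-type cells. Its unheated level in CHIP-KO cells differed from unheated wild type by -0.60 (adjusted p = 4.04e-06), and the heated levels by 0.025 (adjusted p = 0.739). Eif4e, the cap-binding protein itself, fell with heat in wild type, with a log2 change of -0.48 (SE 0.077, adjusted p = 0.000285), and had 0.033 (adjusted p = 0.81) in CHIP-KO cells. Eif4g2, a scaffold relative that lacks the eIF4E site, changed by -0.50 (adjusted p = 0.000197) in wild type, Eif4g3, a second scaffold, by -0.34 (adjusted p = 0.00126), and Eif4e2, a cap-binding relative known as a repressor, by -0.19 (adjusted p = 0.00355). Eif4e3, a cap-binding relative at a mean of 0.511 ± 0.1904, 0.604 ± 0.153, 1.88 ± 0.0857 and 1.06 ± 0.0710 FPKM in heated CHIP-KO, unheated CHIP-KO, heated wild-type and unheated wild-type cells, went against the class: it rose with heat in wild type, by 0.48 (adjusted p = 0.00255), and was lower in heated CHIP-KO than in heated wild-type cells, with a log2 difference of -0.94 (adjusted p = 3.89e-05). It reached 1 FPKM only in wild-type libraries, so it was tested only because of them. Its calls are therefore tied to that choice of genes and are not separate support. Eif4e3 lay on 23 to 91 fragments a library, and it overlaps Gm20696, so its reads may be shared.

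The 4 genes of cap-binding inhibitors were Eif4ebp1, Eif4ebp2, Eif4ebp3 and Eif4enif1, which carries eIF4E into the nucleus. Eif4ebp1, the 4E-binding protein best known as an mTOR substrate, stood at 43.4, 46.7 and 48.4 FPKM in heated CHIP-KO cells, 50.7, 47.1 and 49.3 FPKM in CHIP-KO cells without heat, 21.7, 24.3 and 24.7 FPKM in heated wild-type cells and 41.4, 49.96 and 45.3 FPKM in unheated wild-type cells. The 3 heated wild-type libraries lay below all 9 others. Its log2 change was -0.085 (SE 0.075, adjusted p = 0.471) with heat in CHIP-KO cells and -0.92 (SE 0.075, adjusted p = 2.17e-06) with heat in wild-type cells, an interaction of 0.84 (adjusted p = 0.000144). After heat it was the member with the largest excess in CHIP-KO over wild type, 0.94 (adjusted p = 2.13e-06), whereas the unheated difference was 0.11 (adjusted p = 0.272). Eif4ebp2, its relative, stood at 30.5, 31.4 and 31.4 FPKM in heated CHIP-KO cells, 45.9, 45.5 and 48.5 FPKM in CHIP-KO cells without heat, 35.9, 34.5 and 36.7 FPKM in heated wild-type cells and 68.0, 63.1 and 59.9 FPKM in unheated wild-type cells. Heated libraries lay below unheated ones in both genotypes. It fell with heat in both, with log2 changes of -0.57 (SE 0.054, adjusted p = 8.24e-05) in CHIP-KO cells and -0.82 (SE 0.054, adjusted p = 4.60e-07) in wild-type cells. The interaction of 0.25 (adjusted p = 0.0256) missed the threshold without unheated CHIP-KO replicates 1 or 2, heated CHIP-KO replicates 2 or 3 or heated wild-type replicate 2, with an adjusted p of at most 0.0668. The level was lower in CHIP-KO cells without heat, -0.44 (adjusted p = 4.90e-05), and after heat, -0.19 (adjusted p = 0.0139), the second reaching adjusted p = 0.0526 without heated wild-type replicate 3. Eif4enif1, at 14.1 to 18.7 FPKM, was called in none of the 5 comparisons.

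Among the helicases and helpers, Eif4a1, the main eIF4A, stood at 147, 151 and 159 FPKM in heated CHIP-KO cells, 148, 143 and 145 FPKM in CHIP-KO cells without heat, 112, 126 and 120.5 FPKM in heated wild-type cells and 193, 175 and 166 FPKM in unheated wild-type cells. It was lowest in heated and highest in unheated wild type, with both CHIP-KO groups between. With heat it changed by 0.065 (SE 0.066, adjusted p = 0.537) in CHIP-KO cells and by -0.57 (SE 0.066, adjusted p = 2.83e-05) in wild-type cells. Eif4a2, the paralogous helicase, stood at 61.3, 57.7 and 55.0 FPKM in heated CHIP-KO cells, 48.9, 49.2 and 48.4 FPKM in CHIP-KO cells without heat, 64.4, 73.5 and 71.2 FPKM in heated wild-type cells and 66.6, 54.0 and 59.9 FPKM in unheated wild-type cells. The wild-type groups overlapped and the CHIP-KO groups did not. Its rise with heat was 0.24 (SE 0.077, adjusted p = 0.047) in CHIP-KO and 0.21 (SE 0.077, adjusted p = 0.0339) in wild type, and under the equal-sum scaling it was -0.091 and -0.022. The wild-type call was lost without replicate 2 or 3 of either wild-type group, reaching adjusted p = 0.14, and the CHIP-KO call without any of the 6 CHIP-KO libraries, heated wild-type replicate 3 or unheated wild-type replicate 3, reaching 0.139. Between genotypes Eif4a2 was lower in CHIP-KO cells without heat, -0.29 (adjusted p = 0.00896), and after heat, -0.26 (adjusted p = 0.0184), the second lost without replicate 2 or 3 of either heated group. Eif4a2 overlaps Rfc4 on the opposite strand, and the table does not say whether counting used strand.

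Eif4b, which stimulates the helicase, stood at 155, 152 and 152 FPKM in heated CHIP-KO cells, 142, 138 and 143 FPKM in CHIP-KO cells without heat, 185, 186 and 181 FPKM in heated wild-type cells and 157, 145 and 139.9 FPKM in unheated wild-type cells. The heated wild-type libraries were above all others. It rose with heat in wild type by 0.32 (SE 0.051, adjusted p = 0.000268), against 0.12 (SE 0.051, adjusted p = 0.137) in CHIP-KO cells, and in heated cells it was lower in CHIP-KO than in wild type, with a log2 difference of -0.27 (adjusted p = 0.00155). The wild-type rise of Eif4b was not called under the equal-sum scaling. The interaction of -0.20 (adjusted p = 0.0466) was called in only 1 of the 12 fits that each left out a library, the fit without unheated wild-type replicate 1, and its adjusted p reached 0.101. Eif4h, a smaller helper of the same kind, went the other way, with -0.34 (adjusted p = 0.000318) in wild type and 0.062 (adjusted p = 0.477) in CHIP-KO cells. Eif4a3, a helicase of the exon junction complex that bears the family name but is not known as a scanning helicase, changed by -0.46 (adjusted p = 9.00e-05) in wild type and 0.021 (adjusted p = 0.851) in CHIP-KO cells.

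eIF3, the largest initiation factor, was represented by 14 genes. With heat in wild type Eif3b, Eif3c, Eif3j1, Eif3d, Eif3a and Eif3g fell and Eif3h rose, against 30.5% and 28.1% of all tested genes. Not called were Eif3e, Eif3f, Eif3i, Eif3j2, Eif3k, Eif3l and Eif3m. In CHIP-KO cells 5 rose and 0 fell, against 8.65% and 11.4% of all tested genes. The 5 were Eif3h, Eif3l, Eif3f, Eif3i and Eif3g, each below 0 under the equal-sum scaling. Of 24 alternative settings, the call was lost or reversed in 13 for Eif3f, 12 for Eif3g, 11 for Eif3i, 8 for Eif3l and 7 for Eif3h. Levels were unequal among subunits in every library: Eif3h was the highest of the 14, at 228 to 386 FPKM, and Eif3j2, a copy of the loosely bound j subunit, was the lowest, at 1.12 to 2.37 FPKM. Reads of Eif3j1 and Eif3j2 may be shared between the copies.

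**Figure D3:**
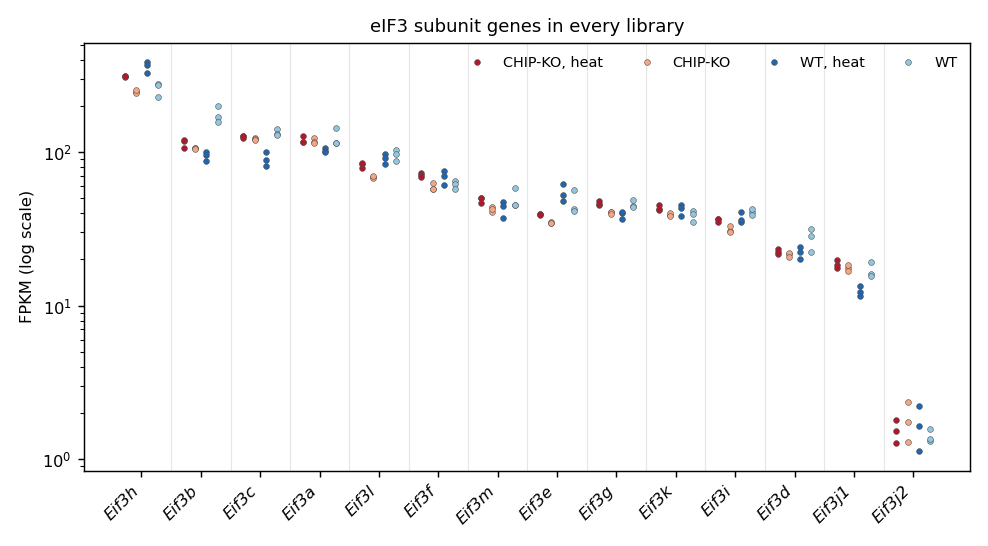
FPKM on a log axis is drawn for 14 eIF3 subunit genes, with a point for each of the 12 libraries and the groups side by side, CHIP-KO left of wild type and heated left of unheated. Eif3h lies at the top, with 228 to 386 FPKM, and Eif3j2 at the bottom, with 1.12 to 2.37 FPKM.

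Eif3b, a subunit of eIF3, stood at 107, 119 and 119.8 FPKM in heated CHIP-KO cells, 107, 106 and 104 FPKM in CHIP-KO cells without heat, 87.3, 99.8 and 96.4 FPKM in heated wild-type cells and 200.03, 169 and 158 FPKM in unheated wild-type cells. Unheated wild-type libraries lay above and heated wild-type libraries below all CHIP-KO libraries. Its log2 change with heat was 0.12 (SE 0.086, adjusted p = 0.349) in CHIP-KO cells and -0.88 (SE 0.086, adjusted p = 8.31e-06) in wild-type cells, and the interaction was 1.01 (adjusted p = 0.000111). Unheated CHIP-KO cells had less than unheated wild type, -0.72 (adjusted p = 4.28e-05), and heated CHIP-KO cells had more than heated wild type, 0.28 (adjusted p = 0.0207), although the heated difference reached adjusted p = 0.0709 without heated CHIP-KO replicate 2 and was also lost without heated CHIP-KO replicate 3 or heated wild-type replicate 1. Eif3h, another subunit, stood at 308, 311 and 313 FPKM in heated CHIP-KO cells, 246, 243 and 255 FPKM in CHIP-KO cells without heat, 326, 386 and 367 FPKM in heated wild-type cells and 228, 278 and 272 FPKM in unheated wild-type cells. Heated libraries lay above unheated ones in both genotypes. The rise was 0.32 (SE 0.082, adjusted p = 0.0188) in CHIP-KO cells, lost without unheated CHIP-KO replicate 1 or 2 or heated CHIP-KO replicate 2 or 3 and -0.02 under the equal-sum scaling, and 0.47 (SE 0.082, adjusted p = 0.000511) in wild-type cells. The interaction was -0.15 (adjusted p = 0.347).

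Eif3e, a further eIF3 subunit, stood at 39.4, 39.4 and 39.0 FPKM in heated CHIP-KO cells, 35.1, 34.7 and 34.6 FPKM in CHIP-KO cells without heat, 47.8, 62.3 and 52.5 FPKM in heated wild-type cells and 56.7, 42.5 and 41.7 FPKM in unheated wild-type cells. Every CHIP-KO library lay below every wild-type library of the same treatment. The difference was -0.41 (SE 0.11, adjusted p = 0.0121) without heat and -0.45 (SE 0.11, adjusted p = 0.00886) after heat. Heat itself was not called, with 0.17 (adjusted p = 0.331) in CHIP-KO and 0.21 (adjusted p = 0.14) in wild type. Eif3g, which binds RNA near the path of the mRNA, stood at 45.1, 45.9 and 48.1 FPKM in heated CHIP-KO cells, 41.1, 41.0 and 39.6 FPKM in CHIP-KO cells without heat, 36.4, 40.1 and 40.5 FPKM in heated wild-type cells and 48.8, 44.7 and 43.7 FPKM in unheated wild-type cells. Heated libraries were above unheated ones in CHIP-KO cells and below them in wild type. The heat change was 0.19 (SE 0.057, adjusted p = 0.04) in CHIP-KO cells, -0.14 under the equal-sum scaling and lost without any CHIP-KO library or unheated wild-type replicate 2, and -0.22 (SE 0.057, adjusted p = 0.00591) in wild-type cells. Of the remaining subunits, Eif3c had -0.58 (adjusted p = 3.92e-05) with heat in wild type, Eif3a -0.26 (adjusted p = 0.0157) and Eif3d -0.29 (adjusted p = 0.0368), the last lost without replicate 1 or 3 of heated wild type, 2 or 3 of unheated wild type or 1 of unheated CHIP-KO.

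The class named for the ternary complex held Eif2s1, the alpha subunit that the stress kinases phosphorylate, and Eif2s2, the beta subunit. Eif2a and Eif2d were placed in this class too, although they are not part of that complex and can bring initiator tRNA to ribosomes without eIF2. Eif2s2 stood at 33.0, 32.1 and 35.1 FPKM in heated CHIP-KO cells, 32.2, 30.9 and 30.5 FPKM in CHIP-KO cells without heat, 19.7, 19.9 and 19.5 FPKM in heated wild-type cells and 37.3, 33.3 and 31.4 FPKM in unheated wild-type cells. The heated wild-type libraries lay below all others by a wide gap. It changed with heat by 0.095 (SE 0.062, adjusted p = 0.313) in CHIP-KO cells and by -0.75 (SE 0.062, adjusted p = 2.31e-06) in wild-type cells, an interaction of 0.85 (adjusted p = 3.78e-05). After heat CHIP-KO cells had more, 0.73 (adjusted p = 3.49e-06), whereas without heat the difference was -0.12 (adjusted p = 0.143). Eif2s2 overlaps the agouti gene a on the opposite strand. Eif2s1 followed the same order, with -0.55 (adjusted p = 6.80e-05) for heat in wild type and 0.09 (adjusted p = 0.415) in CHIP-KO cells. Eif2a, at 13.0 to 16.2 FPKM, and Eif2d, at 5.49 to 6.51 FPKM, were called in none of the 5 comparisons.

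eIF2B, the exchange factor that reloads eIF2 with GTP, has 5 subunits. With heat in wild type Eif2b1, Eif2b3, Eif2b4 and Eif2b5 fell, against 30.5% of all tested genes, and Eif2b2 was not called. The interaction was positive for all 5, against 17.9% of all tested genes. Eif2b5, the catalytic epsilon subunit, stood at 28.4, 27.9 and 30.9 FPKM in heated CHIP-KO cells, 25.8, 25.9 and 25.6 FPKM in CHIP-KO cells without heat, 26.9, 33.3 and 31.9 FPKM in heated wild-type cells and 43.9, 40.1 and 38.8 FPKM in unheated wild-type cells. The unheated wild-type libraries lay above all others. It was lower in unheated CHIP-KO than in unheated wild-type cells, with a log2 difference of -0.65 (SE 0.078, adjusted p = 4.49e-05), and the difference after heat was -0.075 (adjusted p = 0.475). Heat changed it by 0.16 (adjusted p = 0.165) in CHIP-KO cells and by -0.41 (adjusted p = 0.000965) in wild-type cells. Eif2b2, the beta subunit, stood at 25.7, 27.7 and 23.7 FPKM in heated CHIP-KO cells, 18.8, 16.4 and 17.5 FPKM in CHIP-KO cells without heat, 26.3, 27.4 and 22.8 FPKM in heated wild-type cells and 25.5, 24.8 and 24.6 FPKM in unheated wild-type cells. Only the unheated CHIP-KO libraries stood below the rest. It rose with heat in CHIP-KO cells by 0.52 (SE 0.077, adjusted p = 0.00106), against 0.025 (SE 0.077, adjusted p = 0.803) in wild type, and was lower in CHIP-KO than in wild type without heat, with a difference of -0.49 (adjusted p = 0.00035). Eif2b4, the delta subunit, stood at 15.8, 16.8 and 16.2 FPKM in heated CHIP-KO cells, 14.5, 13.5 and 14.4 FPKM in CHIP-KO cells without heat, 13.5, 13.7 and 13.5 FPKM in heated wild-type cells and 16.1, 15.2 and 14.9 FPKM in unheated wild-type cells. Heated libraries were above unheated ones in CHIP-KO cells and below them in wild type. The change was 0.19 (SE 0.048, adjusted p = 0.0159) in CHIP-KO cells, lost without replicate 2 of either CHIP-KO group and -0.13 under the equal-sum scaling, and -0.17 (SE 0.048, adjusted p = 0.00926) in wild-type cells. Eif2b4 overlaps Snx17 on the opposite strand. Eif2b1, the alpha subunit, and Eif2b3, the gamma subunit, fell with heat in wild type, with log2 changes of -0.33 (adjusted p = 0.00249) and -0.48 (adjusted p = 0.000883). On chromosome 16, Eif2b5 and Eif4g1 lie 159.0 kb apart, and on chromosome 11, Eif4a1 and Eif5a lie 244.3 kb apart.

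The scanning and start codon class held 7 genes. Of these Eif1a, Eif1ax, Eif5 and Eif5b fell with heat in wild type, against 30.5% of all tested genes. Only Eif1 rose in CHIP-KO cells, against 8.65% of all tested genes. Eif1 stood at 204, 187 and 188 FPKM in heated CHIP-KO cells, 155, 152 and 149.7 FPKM in CHIP-KO cells without heat, 162, 185 and 158 FPKM in heated wild-type cells and 191, 171 and 163 FPKM in unheated wild-type cells. Heated CHIP-KO libraries were above unheated CHIP-KO libraries, and the wild-type groups overlapped. It changed with heat by 0.34 (SE 0.075, adjusted p = 0.00945) in CHIP-KO cells and by -0.059 (SE 0.075, adjusted p = 0.526) in wild-type cells, and the interaction was 0.40 (adjusted p = 0.0133). The CHIP-KO rise of Eif1 was not called under the equal-sum scaling. Eif1ax, the X-linked eIF1A gene, fell with heat in wild type to 22.9 ± 1.07 FPKM, against 39.5 ± 1.11 FPKM without heat, a log2 change of -0.76 (adjusted p = 1.94e-07), and averaged 30.8 ± 0.0497 FPKM in heated and 32.9 ± 0.0843 FPKM in unheated CHIP-KO cells, -0.091 (adjusted p = 0.181). Its autosomal copy Eif1a had -0.32 (adjusted p = 0.0467) in wild type, with overlapping libraries and a call lost in 9 of the 12 fits that each left out a library, those without unheated wild-type replicates 1 or 2, heated wild-type replicates 2 or 3, any unheated CHIP-KO library or heated CHIP-KO replicates 2 or 3. Reads of these near copies may be shared. Eif5, the GTPase activator of eIF2, had -0.26 (adjusted p = 0.0297), lost without heated wild-type replicates 2 or 3 or unheated wild-type replicate 1, and Eif5b, the subunit-joining GTPase, had -0.26 (adjusted p = 0.0128). Eif1b, a copy of Eif1, and Eif1ad, named for a domain shared with eIF1A, were called for heat in neither genotype.

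Eif5a showed the largest change of the family in wild type and the largest interaction. Its level was 234, 258 and 269 FPKM in heated CHIP-KO cells, 231, 223 and 213 FPKM in CHIP-KO cells without heat, 157, 178 and 172 FPKM in heated wild-type cells and 464, 420.2 and 401 FPKM in unheated wild-type cells. The groups did not overlap: unheated wild type was highest, heated wild type lowest, and the CHIP-KO libraries lay between. With heat the mean was 253 ± 18.0 FPKM in heated and 222 ± 9.05 FPKM in unheated CHIP-KO cells, a log2 change of 0.19 (SE 0.076, adjusted p = 0.11). In wild type it was 169 ± 10.7 FPKM with and 429 ± 32.1 FPKM without heat, -1.34 (SE 0.076, adjusted p = 1.64e-07). The interaction was 1.52 (SE 0.11, adjusted p = 2.80e-06). CHIP-KO cells had less than wild type without heat, -0.94 (adjusted p = 1.88e-06), and more after heat, 0.58 (adjusted p = 0.000108). Eif5a2, the second hypusine gene, was near the low end at 4.07, 4.16 and 3.61 FPKM in heated CHIP-KO cells, 6.30, 5.88 and 6.56 FPKM in CHIP-KO cells without heat, 4.41, 3.68 and 3.81 FPKM in heated wild-type cells and 7.30, 5.76 and 6.23 FPKM in unheated wild-type cells. Heated libraries lay below unheated ones in both genotypes. Its fall was alike in size, -0.55 (SE 0.086, adjusted p = 0.00153) in CHIP-KO and -0.58 (SE 0.086, adjusted p = 0.000177) in wild type, with an interaction of 0.027 (adjusted p = 0.887).

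Eif6, which keeps the large ribosomal subunit from joining too early, stood at 49.3, 54.0 and 53.0 FPKM in heated CHIP-KO cells, 43.8, 43.7 and 44.0 FPKM in CHIP-KO cells without heat, 36.6, 38.4 and 38.9 FPKM in heated wild-type cells and 61.7, 52.3 and 50.6 FPKM in unheated wild-type cells. Heated libraries were above unheated ones in CHIP-KO cells and below them in wild type. It changed with heat by 0.24 (SE 0.07, adjusted p = 0.0314) in CHIP-KO cells, -0.091 under the equal-sum scaling and lost without any unheated CHIP-KO library or heated CHIP-KO replicates 2 or 3, and by -0.52 (SE 0.07, adjusted p = 8.39e-05) in wild-type cells. The interaction was 0.76 (adjusted p = 0.000169).

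**Figure D4:**
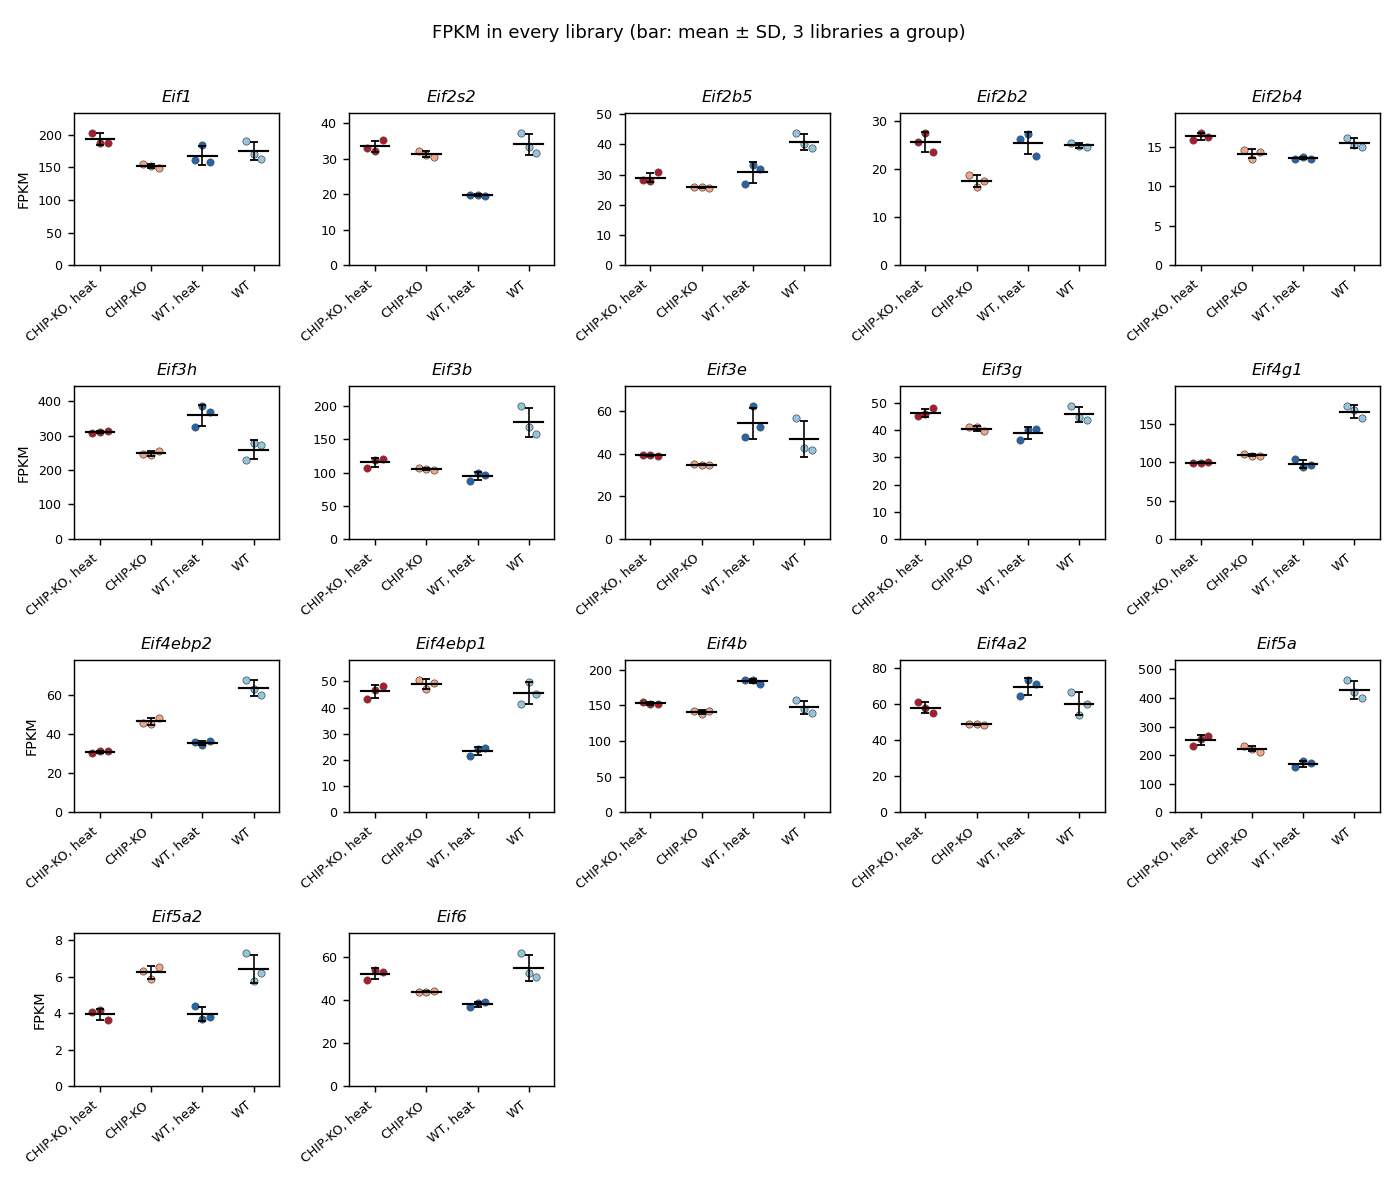
FPKM is drawn on linear axes that start at 0 for 17 members, with a point for each library and the mean and SD of 3 libraries a group. In the Eif5a panel the heated wild-type libraries lie at 157 to 178 FPKM and the unheated wild-type libraries at 401 to 464 FPKM, with both CHIP-KO groups between.

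Genes that act with the initiation factors were counted in 6 further pathway lists of 3 to 16 genes. Their counts stand against 28.1% of all tested genes higher and 30.5% lower with heat in wild type, and 8.65% higher and 11.4% lower with heat in CHIP-KO cells. Termination and recycling, with Abce1, which splits ribosomes, and the release factor gene Gspt1, had 7 of 8 genes lower and 0 higher with heat in wild type, and 1 lower and 0 higher in CHIP-KO cells. Abce1 averaged 36.6 ± 0.207 FPKM in heated and 35.3 ± 0.489 FPKM in unheated CHIP-KO cells, and 25.4 ± 0.493 FPKM in heated and 49.7 ± 5.04 FPKM in unheated wild-type cells, with an interaction of 0.99 (adjusted p = 1.29e-05). Poly(A)-binding genes and their partners had 1 higher and 5 lower of 8 in wild type, among them Pabpc4 at -0.68 (adjusted p = 4.98e-06), and 2 higher and 2 lower in CHIP-KO cells. Elongation genes had 2 higher and 4 lower of 8 tested in wild type and 4 higher and 0 lower in CHIP-KO cells. Eef2, the translocase, had 0.36 (adjusted p = 0.00418) in CHIP-KO cells, with an interaction of 0.066 (adjusted p = 0.634). Eef2 averaged 1491 ± 15.8 FPKM heated and 1159.5 ± 40.8 FPKM unheated in CHIP-KO cells. In wild type the means were 1488 ± 81.9 FPKM heated and 1211 ± 67.2 FPKM unheated. Changes of these pathway lists under the equal-sum scaling are not given here. The eIF2 alpha kinases and phosphatase subunits had 3 higher (33.3%) and 4 lower (44.4%) of 9 in wild type and 1 higher (11.1%) and 2 lower (22.2%) in CHIP-KO cells. Ppp1r15a, the stress-induced subunit that directs dephosphorylation of eIF2 alpha, rose in both genotypes, to 32.2 ± 5.33 FPKM against 13.9 ± 0.744 FPKM in CHIP-KO cells and to 33.8 ± 5.51 FPKM against 8.22 ± 0.936 FPKM in wild-type cells. Eif2ak2, the RNA-activated eIF2 alpha kinase, was higher in unheated CHIP-KO than in unheated wild-type cells by 1.54 (adjusted p = 1.91e-07). Cap-binding signalling had 5 higher (31.2%) and 4 lower (25.0%) of 16 in wild type and 1 higher (6.25%) and 3 lower (18.8%) in CHIP-KO cells, shares near those of all tested genes. In that list Ddit4, an inhibitor of mTOR signalling, rose with heat by 0.79 (adjusted p = 1.26e-05) in CHIP-KO and by 1.06 (adjusted p = 1.31e-07) in wild-type cells. Mitochondrial initiation had 1 lower of 3 in wild type and 0 called in CHIP-KO cells (0 at an unadjusted p under 0.05).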

How the data were processed

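RNA-seq of 12 libraries (4 groups of 3, grouped by title) was analysed from 1 table of FPKM values that the authors deposited, with a gene length column, another value per gene, that the authors deposited beside them. The aligner was HISAT2, per the submitters' processing notes. What counted the fragments, whether strand was used, which annotation and aligner version served and what library size the values were divided by is not given in the sources used here. FPKM times length gave whole fragments for 100% of values, within a tolerance of 0.01. Of 54532 identifiers 54409 were in GENCODE release M21 and 53499 had the same position there (46 of 49 members), so positions are on GRCm38. Median-of-ratios factors over genes above 0 in all libraries were equal, so the deposited FPKM scaling already has that property. Factors over tested genes ran from 0.974 to 1.027.

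Genes with at least 1 FPKM in at least 3 libraries were kept. Log2(FPKM + 1), which understates changes of low genes, went into 1 fit of all 12 libraries with limma 3.58.1 (R 4.3.3), using 4 group means and a variance trend. Tests were two-sided, with Benjamini-Hochberg adjustment over 13023 genes. The steps were tested on simulated data. Of the members, 26 are overlapped by another gene, 13 of them on the opposite strand, where reads cannot be told apart without strand.

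The members, roles and pathway lists were chosen with earlier results of these data known. Values per library are given for the 3 largest called rises and falls of each comparison (mean of at least 2 FPKM in the higher group), the most abundant member of each role and members called in opposite directions; Eif4a1 was added after its values were seen. Promoters are from RefSeq. Deviations correlated at -0.12 to 0.33 between same-numbered libraries of different groups and at -0.315 to 0.13 between differently numbered ones. Between the heated groups the values were 0.33, 0.021 and 0.23 for numbers 1, 2 and 3. Numbers were not taken as pairs, and a shared order among heated libraries was not tested. Alternatives covered pseudocount, filter, scaling, library weights, groups fitted alone, voom on fragments, a test of protein-coding genes alone, a replicate block and each library left out. Figures used matplotlib 3.10.9 in Python 3.11.15.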

Additional observations from a re-analysis of the deposited data

Results flagged for a closer look

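For 30 members the heat response differed between genotypes by the interaction test (limma adjusted p under 0.05), and each value is the log2 heat change in CHIP-KO cells minus that in wild-type cells. Above 0 were Eif5a at 1.52, Eif3b at 1.01, Eif2s2 at 0.85, Eif4ebp1 at 0.84, Eif6 at 0.76, Eif1ax at 0.67, Eif2s1 at 0.64, and Eif4g2, Eif4a1 and Eif3c at 0.63 each. Next came Eif2b3 and Eif4g1 at 0.62 each, Eif2b5 at 0.57, Eif4e at 0.51, Eif2b2 and Eif3j1 at 0.50 each, Eif4a3 at 0.48, Eif3g at 0.41, and Eif4h and Eif1 at 0.40 each. The smallest above 0 were Eif2b1 at 0.39, Eif5 at 0.38, Eif2b4 at 0.37, Eif3l at 0.34, Eif3i at 0.33, Eif4g3 at 0.30, Eif4e2 at 0.27 and Eif4ebp2 at 0.25. Below 0 were Eif4b at -0.20 and Eif4e3 at -0.57, the latter tested only because wild-type libraries reached 1 FPKM. Of the 30, 23 were called under every alternative setting that tested them. Eif2b3 and Eif4e3 are among the 23 but were left out of the setting with a mean of at least 5 FPKM. Calls were lost for Eif4b in 14 of 23 settings, Eif5 in 12 of 23, Eif4g3 in 12 of 22 and Eif4ebp2 in 8 of 23. For Eif3l the call was lost in 2 of 23, and for Eif1 and Eif4e2 in 1 of 23 each.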

How the results depend on the processing

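Counts of members stayed within 1.5 times under every setting run for falls with heat in wild type (29), positive interactions (28), lower levels in unheated CHIP-KO than in unheated wild-type cells (26) and higher levels in heated CHIP-KO than in heated wild-type cells (19). Of the members called, 24 of 33 kept the call for heat in wild type under every setting that tested them. The same held for 3 of 12 for heat in CHIP-KO, 23 of 30 for the interaction, 21 of 26 without heat and 18 of 24 after heat. Eif2b3, Eif4e3 and Eif4g3, which are in some of these counts, were not tested in the setting with a mean of at least 5 FPKM. Rises with heat in CHIP-KO (10) depended most on the setting: 4 without a filter, 4 under quantile normalization, 1 under an equal sum per library, 17 with only the groups compared, 20 with weights per library, 3 with voom and 18 without both wild-type libraries numbered 1, with a range of 2 to 11 over fits that each left out 1 library. Falls there (2) were 4 under quantile normalization, with only the groups compared, with voom, without both wild-type libraries numbered 1 and with library weights, and 31 under an equal sum. Shares of all tested genes called under the same settings are not given here, so these counts by setting have no background beside them. Equal sums moved the median of all genes by -0.15 for heat in wild type, -0.29 for heat in CHIP-KO and -0.12 for the interaction. Under them the median heat change in CHIP-KO was -0.23 for the members, against -0.29 for all genes. The heat change in CHIP-KO was -0.13 for Eif2b4, -0.083 for Eif3f, -0.14 for Eif3g, -0.016 for Eif3h, -0.13 for Eif3i, -0.078 for Eif3l, -0.091 for Eif4a2 and -0.091 for Eif6. That of Eif4a2 in wild type was -0.022. Rises with heat in wild type (4) were 2 under equal sums, 7 without both wild-type libraries numbered 1 and 8 with library weights. Negative interactions (2) were 1 with a mean of at least 5 FPKM, without a filter and among protein-coding genes alone, and 1 to 2 over fits that left out a library. Higher levels in unheated CHIP-KO (0) were 1 without both wild-type libraries numbered 1, 2 with library weights and 0 to 1 with a library left out. Lower levels in heated CHIP-KO (5) were 8 without both wild-type libraries numbered 1, 10 with library weights and 3 to 5 with a library left out. With the replicate number as a block, which was not taken as a pairing in the main fit, rises with heat in CHIP-KO were 6, negative interactions 1 and higher levels in unheated CHIP-KO 1. The causes of these shifts were not tested, apart from the construction of each setting. Levels near 1 FPKM, as for Eif4e3 and Eif3j2, rest on few fragments.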
